A study of Mus musculus with 4 samples.

Results

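The genes described here are 7 regulators of G protein signalling (RGS genes) of lymphocytes, Rgs1, Rgs2, Rgs3, Rgs10, Rgs14, Rgs16 and Rgs19. They were picked by name, and their rows were found through Ensembl gene identifiers in the mouse GENCODE M21 annotation. All 7 were present among the 38282 genes listed, and all 7 passed the filter on low values. RNA came from naive CD4+ T cells of the C57BL/6 mouse spleen, kept in Th0 culture alone (Th0) or with added dopamine (Th0+Dopa) until day 4. Th0 usually means activation with no lineage-directing cytokine. Each group held 2 libraries, numbered 2 and 3 in the labels. The sources used here give neither the age of the mice nor how much dopamine was added or when. The study's title concerns dopaminergic nerves and Th2 inflammation in the lung after birth, and the comparison asks how transcripts differ in CD4+ T cells activated with dopamine present.

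RGS proteins speed the hydrolysis of GTP by the alpha subunits of heterotrimeric G proteins and so shorten the signal of a G protein-coupled receptor. In lymphocytes they are best known for limiting signals of chemokine and sphingosine 1-phosphate receptors, which act through Gi. Dopamine receptors are G protein-coupled too: Drd1 and Drd5 act through Gs and raise cyclic AMP, and Drd2, Drd3 and Drd4 act through Gi and lower it.

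Levels are deposited FPKM (fragments counted relative to transcript length and to a total for the library). Which normalization options set that total is not stated. They came in 2 tables made separately, so each Th0+Dopa library was compared with the Th0 library of the same table. The log2 difference is Th0+Dopa minus Th0 on log2(FPKM + 1), averaged over the tables, and the value after ± is its standard error (SE). A call is an adjusted p under 0.05 in limma, with Benjamini-Hochberg adjustment over 11423 tested genes. The labels do not state whether the 2 libraries of a group are separate cultures or animals, and the spread behind each p-value may therefore be technical. In bulk RNA, fewer cells of a type and less RNA per cell cannot be told apart.

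As read from low values of single-transcript genes, a single fragment on 1 kb of transcript corresponded to 0.149 and 0.198 FPKM in the Th0 libraries 2 and 3 and to 0.152 and 0.151 FPKM in the Th0+Dopa libraries. Markers of T cells were strong, with a summed level of 1950 and 1940 FPKM over 11 genes in Th0 2 and 3 and 1990 and 1880 FPKM in Th0+Dopa 2 and 3. The near-equal sums hold members that went both ways: Cd5, Cd3d and Zap70 were called higher (log2 differences of 0.96, 0.48 and 0.46) and Trac lower (-0.70), and the calls of Cd3d and Zap70 were lost with libraries scaled to a common sum (limma adjusted p = 0.223 and 0.318). Markers of other blood cells differed between the groups in both tables. Their sums in Th0 2 and 3 against Th0+Dopa 2 and 3 were 447 and 594 against 50.1 and 46.8 FPKM for 10 granulocyte, basophil and mast cell genes. They were 216 and 283 against 29.9 and 28.5 FPKM for 10 macrophage and dendritic cell genes, and 61.4 and 71.4 against 14.7 and 17.4 FPKM for 6 platelet genes. Of the tested genes 8 of 8, 8 of 9 and 3 of 3 fell in these lists, where 4.39% of all tested genes were called lower. B cell markers summed to at most 5.37 FPKM and NK cell markers to at most 0.739 FPKM, with Ncr1 and Klra8 listed at 0 in all 4 libraries. The part of these cells in the RGS values was not tested.

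Cyclic AMP is the messenger that dopamine receptors change, so the upstream sequences of the members were searched for TGACG, the 5-base core of the cyclic AMP response element. RefSeq windows (GRCm38.p6) were at hand for 5 of the 7 members, with 8 windows in all, and the 250 bases before the start were read. Rgs2 held the core at 185 and 67 bases before its start, counted to the first base of the match on the gene's strand and allowing the reverse form CGTCA. The windows of Rgs3, Rgs10, Rgs16 and Rgs19 held none. Among all 32851 windows of this length, 17.8% held the core and 1.55% the full element TGACGTCA, which none of the 8 held. The windows of Rgs2 (chr1:144004150-144004399, minus strand) and Rgs16 (chr1:153740103-153740352, plus strand) are printed to show a member with the core beside one without it. They read 5′ to 3′, with matches in capitals:
Rgs2: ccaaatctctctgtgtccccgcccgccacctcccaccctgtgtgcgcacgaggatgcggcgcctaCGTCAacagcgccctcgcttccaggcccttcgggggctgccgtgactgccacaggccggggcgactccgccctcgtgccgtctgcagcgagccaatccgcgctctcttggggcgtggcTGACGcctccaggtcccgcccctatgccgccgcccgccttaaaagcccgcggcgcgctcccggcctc
Rgs16: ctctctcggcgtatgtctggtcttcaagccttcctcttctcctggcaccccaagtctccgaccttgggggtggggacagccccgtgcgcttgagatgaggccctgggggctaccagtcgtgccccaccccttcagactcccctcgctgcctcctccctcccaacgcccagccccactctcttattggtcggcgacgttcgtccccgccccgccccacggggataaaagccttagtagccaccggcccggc

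No member was called with dopamine. Of 7 members 0 rose and 0 fell in limma, where 10.7% of all tested genes were called, 6.28% higher and 4.39% lower. At an unadjusted p under 0.05 there were 2 members, Rgs1 and Rgs19, against 27.8% of all tested genes. The median log2 difference of the members was 0.14, and that of all tested genes 0.03. In 4 members the difference had the same sign in both tables (Rgs1, Rgs2, Rgs14 and Rgs19), and in 3 it had opposite signs (Rgs3, Rgs10 and Rgs16). The share of all tested genes with the same sign was not counted. It is at least the 57% given below, since groups that do not overlap differ in the same direction in both tables. In 3 members the Th0 and Th0+Dopa libraries did not overlap, with Rgs1 and Rgs2 higher and Rgs19 lower with dopamine. Among all tested genes 57% did not overlap, 31.4% higher and 25.6% lower, so this count was not above the background. With 2 libraries against 2, an exact two-sided permutation test of a single gene that ignores the tables cannot go below 0.333. Swaps kept within a table, as the fit used here would require, allow fewer arrangements.

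**Figure D1:**
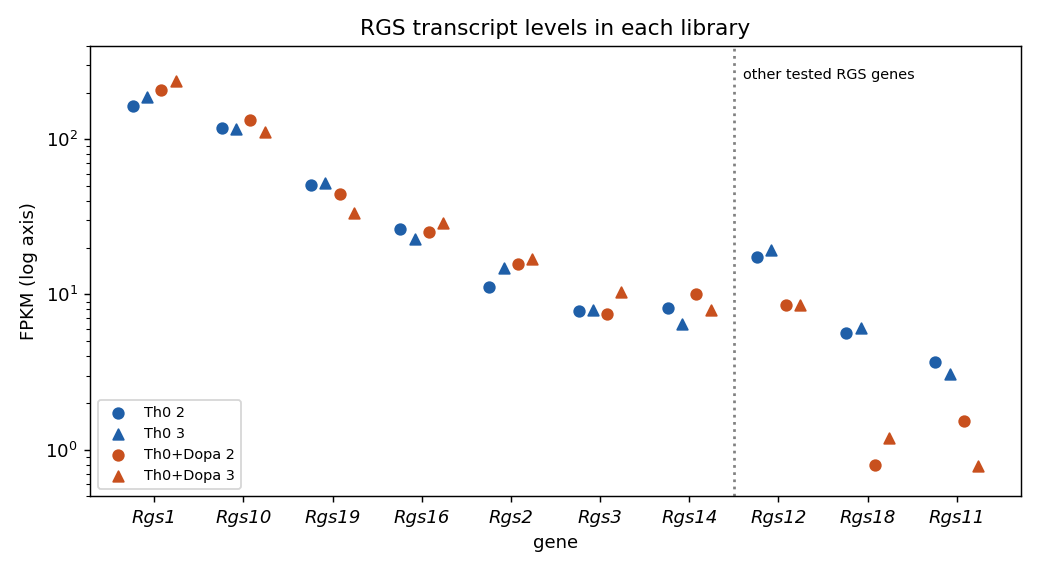
FPKM on a log axis for the 7 members, ordered by mean level, and for the 3 other RGS genes that passed the filter; each point is 1 library, blue for Th0 and orange for Th0+Dopa, circles for libraries 2 and triangles for libraries 3. Rgs1 lay between 165 and 238 FPKM, and the libraries of Rgs12, Rgs18 and Rgs11 separate by group.

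The members kept nearly the same order of level in every library. From the highest it ran Rgs1, Rgs10, Rgs19, Rgs16 and Rgs2, followed by Rgs14 and Rgs3 in the libraries numbered 2 and by Rgs3 and Rgs14 in those numbered 3. Down to Rgs2 no neighbours in this order overlapped over the 4 libraries, whereas Rgs3 and Rgs14 did not differ beyond their spread. The highest member stood 21.1, 28.0, 28.9 and 30.1 times above the lowest in Th0 2, Th0+Dopa 2, Th0 3 and Th0+Dopa 3. Together the members summed to 388, 445, 408 and 447 FPKM in the same order of libraries.

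Rgs1 (ENSMUSG00000026358, chromosome 1, 144242296 to 144249242, minus strand, GRCm38) encodes a regulator of Gi and Gq that restrains lymphocyte migration toward chemokines. It stood at 165 and 187 FPKM in Th0 2 and 3 and at 208 and 238 FPKM in Th0+Dopa 2 and 3. Both libraries with dopamine were above both without, by 1.26-fold and 1.27-fold in the FPKM of libraries 2 and 3. The log2 difference was 0.34 ± 0.10 (95% interval 0.09 to 0.58), with an adjusted p of 0.0948 in limma. Rgs1 thus missed the threshold, and its interval ran from 1.06-fold to 1.5-fold on the FPKM + 1 scale. An estimated 1883 to 3133 fragments lay behind each value, so counting error alone allows ± 0.08 in the log2 difference of each table. With a library left out the difference ran from 0.22, without Th0+Dopa 3, to 0.39.

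The value of Rgs1 moved with the processing. After each table's differences were corrected for GC content and transcript length, it was 0.64 ± 0.08 and was called (limma adjusted p = 0.0132), where 8.43% of genes were called, 4.28% higher. Its transcripts have a mean GC content of 37.9%, and 1.01% of tested genes have a lower one. With every library scaled to a common sum of FPKM it was 0.082 ± 0.11 (adjusted p = 0.651), a setting that shifted the median of all genes to -0.20. Rgs1 still lay above that median. As a share of the summed FPKM of the 7 members, which no scaling of a library moves, Rgs1 made up 42.7% and 45.9% in Th0 2 and 3 and 46.7% and 53.2% in Th0+Dopa 2 and 3.

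Rgs10 (ENSMUSG00000030844, chromosome 7, 128373621 to 128418758), which encodes a small protein made up of little more than the RGS domain and acts on Gi, was the second most abundant member. Its level was 118 and 116 FPKM in Th0 2 and 3 and 134 and 112 FPKM in Th0+Dopa 2 and 3. The groups overlapped, and the log2 difference was 0.06 ± 0.11 (interval -0.21 to 0.34, limma adjusted p = 0.761). Within a library, the FPKM ratio of Rgs1 to Rgs10 was 1.4 and 1.62 in Th0 2 and 3 and 1.55 and 2.13 in Th0+Dopa 2 and 3. This ratio was higher with dopamine in both tables, by 1.11-fold and 1.31-fold, but the groups overlapped across tables. A noncoding gene on the same strand, Gm15503, overlaps Rgs10 and was listed at up to 1.99 FPKM.

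Rgs19 (ENSMUSG00000002458, chromosome 2, 181688419 to 181693977), known as GAIP for its binding to the Gi alpha subunit Gnai3, was the only one of the 7 with a negative log2 difference at the deposited scale, whereas Rgs3, Rgs10 and Rgs16 turned negative too with libraries scaled to a common sum. It stood at 50.4 and 52.4 FPKM in Th0 2 and 3 and at 44.5 and 33.3 FPKM in Th0+Dopa 2 and 3. Both libraries with dopamine were below both without, and the gap was wider in the libraries numbered 3, at a log2 difference of -0.64, than in those numbered 2, at -0.18. The fitted difference was -0.41 ± 0.15 (interval -0.77 to -0.04, limma adjusted p = 0.145). It was -0.22 without Th0+Dopa 3 and -0.65 without Th0+Dopa 2. From estimated fragments, counting error allows ± 0.25 in the difference of libraries 2 and ± 0.29 in that of libraries 3, so the former lies within it.

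Rgs19 passed the threshold under both settings that scale libraries to a common sum. With all genes in the sum it was -0.66 ± 0.15 (limma adjusted p = 0.0332), where 9.31% of genes were called lower. Leaving small RNA genes out of the sum gave -0.61 ± 0.13 (adjusted p = 0.022), where 12.6% were. These settings moved the median of all genes to -0.20 and -0.16. After the GC and length correction, with that median at 0.02, Rgs19 was -0.61 ± 0.13 and missed the threshold (limma adjusted p = 0.0519). As a share of the summed FPKM of the members, Rgs19 made up 13.0% and 12.8% in Th0 2 and 3 and 10.0% and 7.46% in Th0+Dopa 2 and 3. The FPKM ratio of Rgs1 to Rgs19 was 3.28 and 3.58 in Th0 2 and 3 and 4.67 and 7.14 in Th0+Dopa 2 and 3. This ratio was higher with dopamine in both tables, by 1.42-fold and 1.99-fold.

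**Figure D2:**
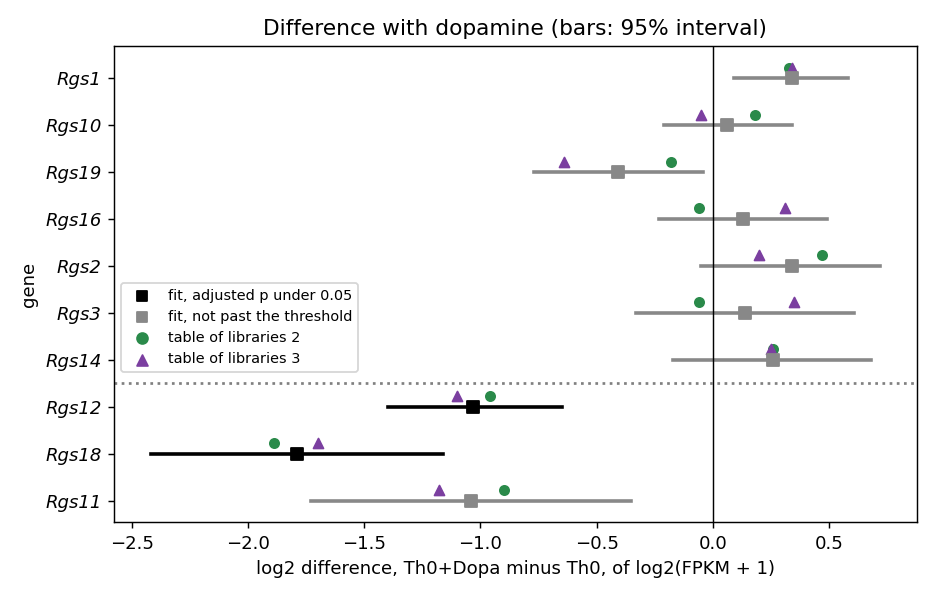
Log2 difference, Th0+Dopa minus Th0, for the 7 members (above the dotted line) and the 3 other tested RGS genes; squares and bars are the limma estimate and its 95% interval, black where called, and the circle and triangle above each are the difference in libraries 2 and 3. The intervals of Rgs1 and Rgs19 lie beside 0 without a call, and Rgs12 and Rgs18 are at -1.03 and -1.79.

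Rgs16 (ENSMUSG00000026475, chromosome 1, 153740349 to 153745468, plus strand) encodes a regulator of Gi and Gq that is induced in activated lymphocytes. Its level was 26.4 and 22.9 FPKM in Th0 2 and 3 and 25.4 and 28.7 FPKM in Th0+Dopa 2 and 3. The tables went opposite ways, and the log2 difference was 0.13 ± 0.15 (interval -0.23 to 0.49, limma adjusted p = 0.617). Gm28513, annotated antisense to Rgs16, overlaps 1917 bases of it, and reads of the pair are uncertain because whether counting used strand is not stated. Gm28513 itself was not among the genes listed.

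Rgs2 (ENSMUSG00000026360, chromosome 1, 143999338 to 144004161), whose protein favours Gq over Gi and whose transcript is known to be induced by cyclic AMP in several cell types, was a minor member. It stood at 11.1 and 14.7 FPKM in Th0 2 and 3 and at 15.7 and 17.0 FPKM in Th0+Dopa 2 and 3. Both libraries with dopamine were higher, by 1.42-fold in libraries 2 and 1.16-fold in libraries 3. The log2 difference was 0.34 ± 0.15 (interval -0.05 to 0.72) and missed the threshold (limma adjusted p = 0.221). With 83 to 126 estimated fragments per library, counting error allows ± 0.41 and ± 0.40 in the differences of libraries 2 and 3. The value without Th0 2 was 0.13, that without Th0 3 was 0.49 and that with libraries at a common sum was 0.097.

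Rgs3 (ENSMUSG00000059810, chromosome 4, 62559847 to 62704001) encodes a regulator of Gi and Gq with long and short isoforms, which a gene-level value does not separate. It was listed at 7.82 and 7.98 FPKM in Th0 2 and 3 and at 7.44 and 10.4 FPKM in Th0+Dopa 2 and 3. Only the Th0+Dopa library numbered 3 lay apart from the others. The log2 difference of libraries 3, at 0.35, was still within the ± 0.41 that counting error allows. The log2 difference was 0.14 ± 0.19 (interval -0.33 to 0.61, limma adjusted p = 0.675). An annotated antisense gene, Gm11209, overlaps 6036 bases of Rgs3 and was listed at 0 in every library.

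Rgs14 (ENSMUSG00000052087, chromosome 13, 55369732 to 55384687) encodes a scaffold that also binds Ras and Rap GTPases and holds inactive Gi alpha subunits. Its level was 8.21 and 6.48 FPKM in Th0 2 and 3 and 10.1 and 7.9 FPKM in Th0+Dopa 2 and 3. The increase was 1.22-fold in both tables, but levels overlapped between the groups because both libraries numbered 3 were lower. The log2 difference was 0.26 ± 0.17 (interval -0.17 to 0.68, limma adjusted p = 0.386). It was 0.067 without Th0+Dopa 2, 0.074 without Th0 3, 0.39 without Th0 2 and 0.40 without Th0+Dopa 3. It was 0.096 after the GC and length correction and 0.028 with a common sum. An estimated 54 to 109 fragments lay behind each value, and the 54 in Th0 3 were the fewest of any member in any library. Counting error allows ± 0.40 and ± 0.49 in the differences of libraries 2 and 3.

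**Figure D3:**
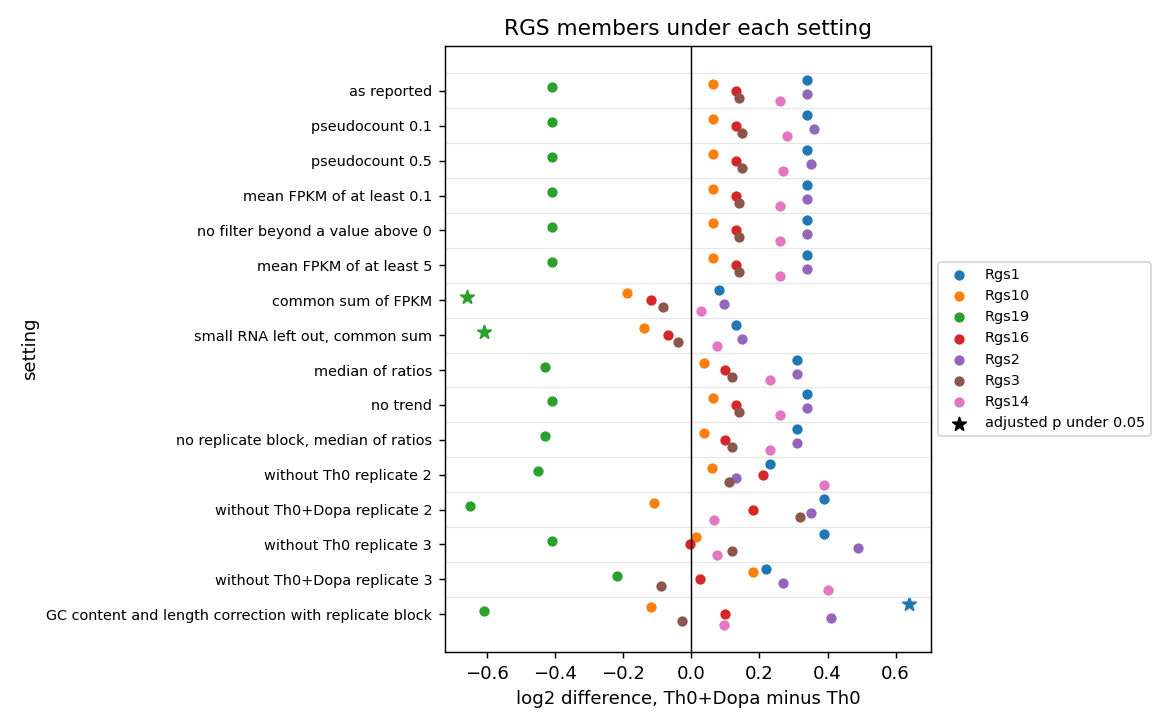
Log2 difference, Th0+Dopa minus Th0, of each member under the reported setting and 15 alternatives (vertical axis); colours mark genes and stars an adjusted p under 0.05. The stars are Rgs1 at 0.64 after the GC and length correction and Rgs19 at -0.66 and -0.61 with libraries scaled to a common sum.

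The other RGS genes gave calls that the members did not. Of 15 further family genes 14 were in the tables and 3 passed the filter, of which 0 rose and 2 fell. Among all tested genes 6.28% were called higher and 4.39% lower, and 3 tested genes are too few for a statement about the family. Rgs12 (ENSMUSG00000029101, chromosome 5, 34949445 to 35039644) encodes a large regulator of Gi that also binds Ras and Raf proteins. It stood at 17.5 and 19.4 FPKM in Th0 2 and 3 and at 8.51 and 8.53 FPKM in Th0+Dopa 2 and 3, above Rgs2, Rgs3 and Rgs14 in Th0 2 and 3. It fell by 1.03 on the log2 scale (SE 0.15, limma adjusted p = 0.0154), with non-overlapping groups. The FPKM ratio of Rgs1 to Rgs12 within a library was 9.46 and 9.66 in Th0 2 and 3 and 24.4 and 27.9 in Th0+Dopa 2 and 3.

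Rgs18 (ENSMUSG00000026357, chromosome 1, 144752683 to 144775435), best known from platelets, megakaryocytes and myeloid cells, had 5.62 and 6.05 FPKM in Th0 2 and 3 and 0.791 and 1.18 FPKM in Th0+Dopa 2 and 3. It fell by 1.79 on the log2 scale (SE 0.25, limma adjusted p = 0.0142). Its difference was -2.48 with a pseudocount of 0.1, since the pseudocount of 1 understates changes of low genes. After the GC and length correction the difference was smaller, at -1.26 ± 0.23, and still called (limma adjusted p = 0.0324). The GC content of its transcript is 33.4%. Platelet markers were lower in the same libraries: Pf4, a platelet chemokine, stood at 43.8 and 48.8 FPKM in Th0 2 and 3 and at 10.9 and 11.8 FPKM in Th0+Dopa 2 and 3. The granulocyte and macrophage marker sums above were lower too, and the part of these cells in the value of Rgs18 was not tested. Rgs18 lies with Rgs2, Rgs13 and Rgs1 in a cluster on chromosome 1, and these neighbours differed in level. Rgs13, known from mast cells and germinal centre B cells, was listed at 0 in every library. The difference between Rgs18 and its neighbours was not tested, and the FPKM ratio of Rgs1 to Rgs18 was 29.4 and 31.0 in Th0 2 and 3 and 263 and 202 in Th0+Dopa 2 and 3. The latter ratios are rough, since Rgs18 rests on an estimated 10 and 15 fragments in Th0+Dopa 2 and 3. Counting error allows ± 0.96 and ± 0.83 in its log2 differences of libraries 2 and 3.

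Rgs11, which encodes an RGS protein that pairs with the G protein subunit Gnb5, was listed at 3.69 and 3.06 FPKM in Th0 2 and 3 and at 1.52 and 0.789 FPKM in Th0+Dopa 2 and 3. Its groups did not overlap, but the log2 difference of -1.04 ± 0.28 missed the threshold (limma adjusted p = 0.0746). Scaling to a common sum brought it past the threshold (-1.21, adjusted p = 0.0398). The remaining 11 genes lay under the filter. Of these, Rgs9 was at most 1.01 FPKM and Rgs8 at most 0.439 FPKM, and Rgs6, Rgs7 and Rgs13 were listed at 0 in all 4 libraries. Rgs21 was not analysed here.

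With 1 library left out, the difference of Rgs12 stayed between -1.11 and -0.99 and that of Rgs18 between -1.94 and -1.67, while neither passed the threshold. The limma adjusted p of Rgs12 was 0.188 without Th0 2, 0.301 without Th0 3, 0.209 without Th0+Dopa 2 and 0.143 without Th0+Dopa 3. That of Rgs18 was 0.15, 0.235, 0.179 and 0.124 in the same order, and these fits called 22, 3, 0 and 0 of all tested genes. Without the trend of variance on level, Rgs12 also missed the threshold (adjusted p = 0.0683).

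The counts of calls in the lists of G protein signalling that follow are to be read against the 6.28% of all tested genes called higher and the 4.39% called lower. RGS proteins act on the G protein alpha subunits. Of 16 alpha subunit genes 10 were tested, and 0 rose and 0 fell in limma, with 0 also at an unadjusted p under 0.05. Gnas, the alpha subunit of Gs, had 296 and 287 FPKM in Th0 2 and 3 and 273 and 254 FPKM in Th0+Dopa 2 and 3, a log2 difference of -0.14 ± 0.10 (adjusted p = 0.406). Gnai3, a Gi alpha subunit, had -0.07 ± 0.10 (adjusted p = 0.723). Of 9 tested beta and gamma genes 1 rose and 0 fell. The gamma subunit gene Gng2 rose by 1.03 (SE 0.12, adjusted p = 0.00749), from 32.1 and 22.2 FPKM in Th0 2 and 3 to 69.9 and 44.1 FPKM in Th0+Dopa 2 and 3. Gng2 missed the threshold without the replicate block (1.00 ± 0.28, adjusted p = 0.119) and without the trend (adjusted p = 0.0683), and it ran from 0.67 without Th0+Dopa 2 to 1.34 without Th0+Dopa 3. The beta subunit genes Gnb1 and Gnb2 had -0.24 ± 0.10 and 0.24 ± 0.11 (adjusted p = 0.193 and 0.206).

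Receptor kinases and arrestins end receptor signals upstream of the G protein. Of 6 tested, 0 rose and 0 fell in limma, with 1 (Grk6) at an unadjusted p under 0.05. Grk6 and Grk2 had log2 differences of 0.27 ± 0.10 and 0.18 ± 0.11 (adjusted p = 0.171 and 0.316). Of 7 tested accessory genes 0 rose and 1 fell. Pdcl, a phosducin-like partner in the folding of G protein beta subunits, fell by 0.74 (SE 0.11, adjusted p = 0.0154). Its level was 76.6 and 79.7 FPKM in Th0 2 and 3 and 47.2 and 45.5 FPKM in Th0+Dopa 2 and 3. Its call was lost without the trend (adjusted p = 0.102). Ric8a, a chaperone and exchange factor of alpha subunits, and the Gi alpha partner Gpsm2 had 0.10 ± 0.13 and -0.56 ± 0.20 (adjusted p = 0.679 and 0.141).

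Among 14 tested Gi-coupled chemoattractant and lipid receptors, whose signals RGS proteins limit, 0 rose and 4 fell. The chemokine receptors Ccr2 and Cxcr4 fell by 1.26 and 1.19, and the sphingosine 1-phosphate receptor S1pr1 and the lymph node homing receptor Ccr7 fell by 0.73 and 0.70 (limma adjusted p = 0.0389, 0.0246, 0.0456 and 0.021). Without the trend all 4 missed the threshold (adjusted p = 0.0509, 0.0665, 0.102 and 0.111), and Ccr2, Cxcr4 and S1pr1 missed it with the looser filters on low values (0.0546 to 0.0925). Ccr2, S1pr1 and Ccr7 missed it without the replicate block (0.0986, 0.0569 and 0.0503), as did Ccr2 and S1pr1 after the GC and length correction (0.0603 and 0.0729). Ccr4 and the oxysterol receptor Gpr183 had -0.24 ± 0.14 and -0.50 ± 0.12 and missed the threshold (adjusted p = 0.323 and 0.054). Of the 14 tested receptors, 4 had a positive and 10 a negative difference. Among all 11423 tested genes 6008 had a positive and 5415 a negative one. The largest positive difference of the receptors was that of Cxcr3, at 1.05 ± 0.25, which also missed the threshold (limma adjusted p = 0.0541). Cxcr3 stood at 2.1 and 1.83 FPKM in Th0 2 and 3 and at 6.4 and 4.11 FPKM in Th0+Dopa 2 and 3. Macrophages also carry Ccr2, and their markers were lower in the same libraries, with the part of such cells not tested. Of 8 tested Gs-coupled receptors 0 rose and 1 fell, the proton-sensing receptor Gpr65 (-0.81 ± 0.16, adjusted p = 0.0379). It missed the threshold with the looser filters (0.0716 and 0.0574), without the trend (0.127), without the replicate block (0.0763) and after the correction (0.0771). The prostaglandin E2 receptor genes Ptger4 and Ptger2 had -0.58 ± 0.14 and 0.59 ± 0.14 (adjusted p = 0.0529 and 0.0571).

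All 5 dopamine receptor genes lay far below the filter. Drd2 and Drd4 were listed at 0 in all 4 libraries, Drd1 was at most 0.0438 FPKM, Drd5 at most 0.0729 FPKM and Drd3 at most 0.147 FPKM. A value this low rests on very few fragments, and lower levels were not detectable at this depth. Of 10 tested G protein effectors 0 rose and 0 fell in limma, with 1 at an unadjusted p under 0.05, Pik3cg (-0.69 ± 0.18, adjusted p = 0.0702), named after its value was seen. Dock2, a Rac exchange factor of lymphocyte migration, and the adenylyl cyclase Adcy7 had -0.26 ± 0.11 and 0.26 ± 0.14 (adjusted p = 0.193 and 0.287).

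**Figure D4:**
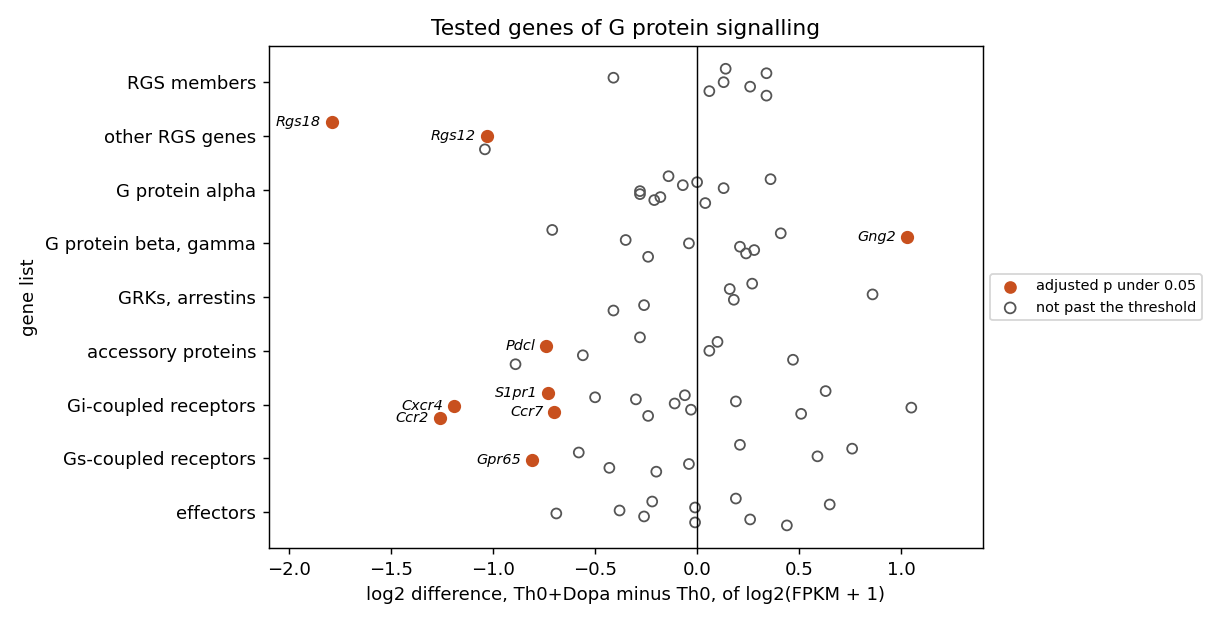
Log2 difference, Th0+Dopa minus Th0, of each tested gene in 9 lists of G protein signalling; filled points are calls and open points are not. The RGS members span -0.41 to 0.34 with no call, and the named calls are Rgs18, Rgs12, Gng2, Pdcl, Cxcr4, Ccr2, S1pr1, Ccr7 and Gpr65.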

How the data were processed

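RNA was sequenced from 4 libraries of cultured CD4+ T cells. Per the labels' protocols, libraries were strand-specific and made from total RNA after removal of ribosomal and globin RNA. The tools listed in the submitters' processing notes include Cufflinks 2.2.1 and STAR 2.4.2, with Trimmomatic 0.35 and the build mm10. Which annotation release and which normalization options were used is not stated there. The deposited values are FPKM in 2 tables made separately, which summed to 687066, 880583, 715110 and 794873 in Th0 2, Th0+Dopa 2, Th0 3 and Th0+Dopa 3.

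GENCODE M21 named 36423 of 38282 genes. The 11423 genes whose FPKM averaged 1 or more were tested with limma 3.58.1 in R 4.3.3 (lmFit, eBayes with trend) on log2(FPKM + 1), with the table as a block, two-sided. Each gene has 1 residual degree of freedom, and the prior adds 4.70. The procedure was also run on simulated log2 values whose variances were drawn from the fitted prior. That run cannot check the assumptions of the model. Depth was estimated from genes of a single transcript, after 140 bases were taken off each length. About 90% of low values (89.9% to 90.7%) came within 0.15 of whole fragments, where 30% would by chance. Fragments of other genes use mean transcript length and are rough. Intervals from them are normal approximations at 95% and cover counting error only.

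Members and lists were chosen with earlier results of these data known. Of each pathway list the text names the calls and the 2 most abundant genes not called. Cxcr3 and Pik3cg, also not called, were named after their values were seen. No member was called, so no genes of like pattern were sought. Alternatives were other pseudocounts (0.1, 0.5), filters, scalings, no trend, no block, each library left out, and a loess correction (span 0.3) for GC content and transcript length. Fits without the block used median of ratios scaling, and lone libraries in them were assumed to vary like the others.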

Additional observations from a re-analysis of the deposited data

How the results depend on the processing

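Of 11423 tested genes 1218 were called, 58.9% of them higher. The count was 669 with a mean FPKM of at least 0.1, 740 with no filter, 1907 with small RNA left out before scaling to a common sum, 256 without the trend, and 0 to 22 with a library left out. With a common sum 26.1% of 1440 calls were higher, and with small RNA left out 25.9%. No replicate block gave 443 calls and 0 members. The libraries share a table and a number. The difference between libraries 2 and 3 correlated across genes at 0.09 between Th0 and Th0+Dopa, too little to show that they are paired. The reported setting nevertheless compares them within a table, and its 1218 calls rest on that block. Of 32 named calls, markers included, 19 passed without the trend, 24 without the block, 27 after the GC and length correction and 0 or 1 with a library left out, and 0 changed sign.

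The count of members called was 0 as reported and 1 with a common sum, 1 with small RNA left out (Rgs19 in both) and 1 after the GC and length correction (Rgs1), and 0 in the other alternatives, 0 to 0 with a library left out. Rgs1, Rgs2, Rgs14 and Rgs19 kept their sign in all 15 alternatives. Signs turned for the other 3, whose differences were near 0. Rgs10 was -0.19 with a common sum, -0.14 with small RNA left out, -0.12 after the correction and -0.11 to 0.18 with a library left out (lowest without Th0+Dopa 2). Rgs16 was -0.12 and -0.069 under the same scalings and -0.0053 to 0.21 with a library left out (lowest without Th0 3). Rgs3 was -0.085 and -0.04 under them, -0.029 after the correction and -0.09 to 0.32 with a library left out (lowest without Th0+Dopa 3). These scalings put the median of all genes at -0.20 and -0.16, against 0.03 as reported. For the correction and left-out libraries the cause was not tested. With a library left out, members ranged from -0.65 (Rgs19) to 0.49 (Rgs2). Values of Rgs2, Rgs3 and Rgs14 are limited by depth.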
